A study of Mus musculus with 16 samples.

Results

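Liver RNA of mice lacking Mfap2 was compared between 2 stages of carbon tetrachloride (CCl4) fibrosis. The 8 libraries labelled Mfap2-/- were taken from the 16 of the series by their genotype label: 4 livers from mice given CCl4 by intraperitoneal injection for 8 weeks and then kept without it for 4 weeks (reversal), and 4 livers from mice sampled after 8 weeks of CCl4. The wild-type series, labelled Mfap2+/+, has the same stages with 4 livers each and is set beside the knockout where the stage difference itself is compared. All 16 mice received CCl4, and the 8-week labels number the mice, while the reversal labels number only the libraries, which are called mice here too. How the knockout allele was made, and the strain, age and sex of the mice, are not given in the labels, and livers without CCl4 were not analysed here.

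Mfap2 encodes microfibril-associated glycoprotein 1 (MAGP1), a small matrix protein carried on fibrillin microfibrils, which also binds growth factors of the TGF-beta family. CCl4 is made toxic by the cytochrome P450 Cyp2e1 in hepatocytes around the central vein. Repeated doses activate hepatic stellate cells into myofibroblasts that lay down fibrillar collagen. After the toxin is withdrawn, myofibroblasts are known to die or become quiescent, macrophages turn to matrix degradation and hepatocytes recover their metabolic genes.

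The livers expressed the defining hepatocyte transcript: albumin (Alb) stood at 87874, 66359, 31655 and 93032 scaled FPKM in knockout reversal mice 1 to 4, against 40729, 47326, 21038 and 36360.5 in knockout 8-week mice 1 to 4. Here and below, scaled FPKM is the deposited FPKM (fragments per kilobase of transcript, relative to library size), a value per transcript length, rescaled so that libraries of the separately normalized tables share a median gene. Values of a group are always in the order of mice 1 to 4. Mfap2 (chromosome 4, 141010418 to 141015984 of mm10, plus strand) was listed at 0 in all 8 knockout libraries, while the deposited values ran from 0.17 to 0.47 FPKM in wild-type reversal livers and from 0.902 to 3.07 FPKM in wild-type 8-week livers. A fold against a level of 0 is not defined.

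The stages differ in more than time, and this bears on every result below. Each stage was deposited as its own table, and the labels name a NEBNext Ultra kit for the 8-week libraries and that kit or a VAHTS Universal V6 kit for the reversal libraries. The Y-linked genes Ddx3y, Uty, Kdm5d and Eif2s3y were listed in the 8-week table alone, where Eif2s3y, a translation initiation subunit, had 22.6 to 31.2 deposited FPKM in the knockout livers and 17.0 to 34.6 in the wild-type livers. The lists of sex-biased genes were added after their values were seen. Liver genes known to be higher in female mice were far higher in the reversal table. Of 13 such genes tested, 9 were called higher and 0 lower in knockout reversal livers, with a median log2 difference of 3.54, and the median was 4.25 in wild-type livers. The cytochrome P450 Cyp2b9 stood at 168, 170.5, 65.4 and 257 scaled FPKM in knockout reversal livers, against 6.57, 0.994, 1.87 and 0.563 in knockout 8-week livers. Cux2, a transcription factor of the female liver, stood at 19.1, 8.85, 13.8 and 14.97 against 0.0901, 0.488, 0.367 and 0.162. Among 17 genes known to be higher in males, 4 were called lower and 1 higher, with a median of -1.03 in knockout and -1.28 in wild-type livers. Ugt2b38, a glucuronosyltransferase, stood at 0.417, 0, 0.0378 and 0 in knockout reversal livers, against 7.41, 25.3, 8.86 and 44.99 in knockout 8-week livers. The female-biased genes were called higher in 9 of 13 cases in the knockout and in 9 in the wild type, whereas most male-biased genes were not called, Mup21 among them. Stage, table, library kit and a pattern that the sex of the mice would give cannot be told apart here. For that reason no p-value is given for a difference between stages, and the differences are descriptions.

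**Figure D1:**
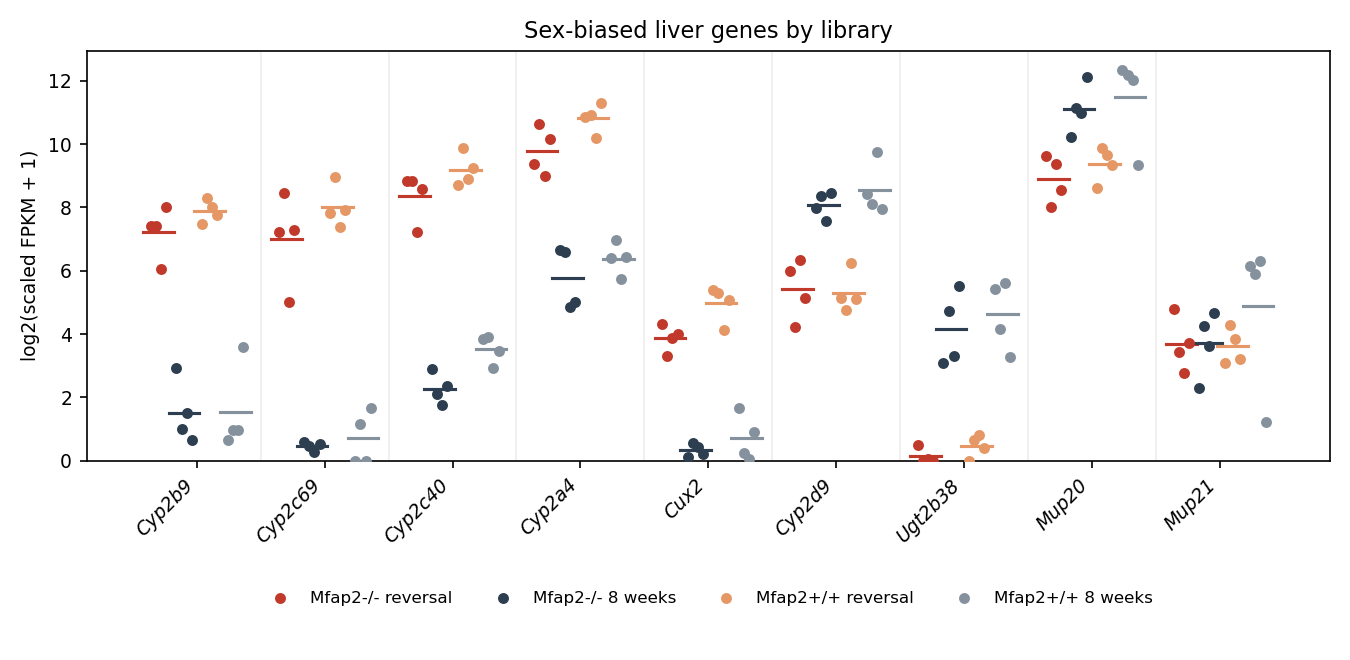
Scaled FPKM (y axis, log2(scaled FPKM + 1)) of 5 liver genes known to be higher in female mice (Cyp2b9 to Cux2) and 4 known to be higher in males (Cyp2d9 to Mup21). Each point is 1 liver, bars are group means, 4 livers a group; the first 5 genes separate the stages in both genotypes, and of the other 4, Cyp2d9, Ugt2b38 and Mup20 are called lower in the knockout reversal livers while Mup21 overlaps.

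The stage difference also varied with transcript length and abundance, and stage and table cannot be told apart in this. Of 10 equal groups of genes by longest annotated transcript, the shortest (255 to 1395 bases) had a median log2 difference of 0.63 in knockout livers, with 35.6% of its genes called higher, while the medians of the other groups lay between -0.16 and 0.03. Of 5 equal groups by abundance, the most abundant had a median of 0.61. Some abundant transcripts differed by amounts that set them apart from their neighbours in function. The glycolytic enzyme Gapdh stood at 2853, 3954, 3619 and 2667 scaled FPKM in knockout reversal livers. In knockout 8-week livers it stood at 43.9, 50.4, 45.7 and 43.7. The log2 difference was 6.11 ± 0.14, with 5.69 in wild-type livers. For differences between stages, here and below, ± gives the SE of the difference (n = 4 and 4). Chd9, a chromatin remodeller, differed by 8.47 ± 0.19 and Tonsl, a replication repair factor, by 6.45 ± 0.09, again with like values in wild-type livers (9.01 and 6.33). Beta-actin (Actb) differed by -0.01 ± 0.33. Mitochondrial transcripts were listed in the reversal table alone, at 23.5%, 32.4%, 37.5% and 25.6% of the deposited total in knockout reversal mice 1 to 4. The first principal component of the 8 knockout libraries separated the stages and held 75.9% of the variance. The second held 8.98%, and on it reversal mouse 3 lay farthest out, at -37.7.

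**Figure D2:**
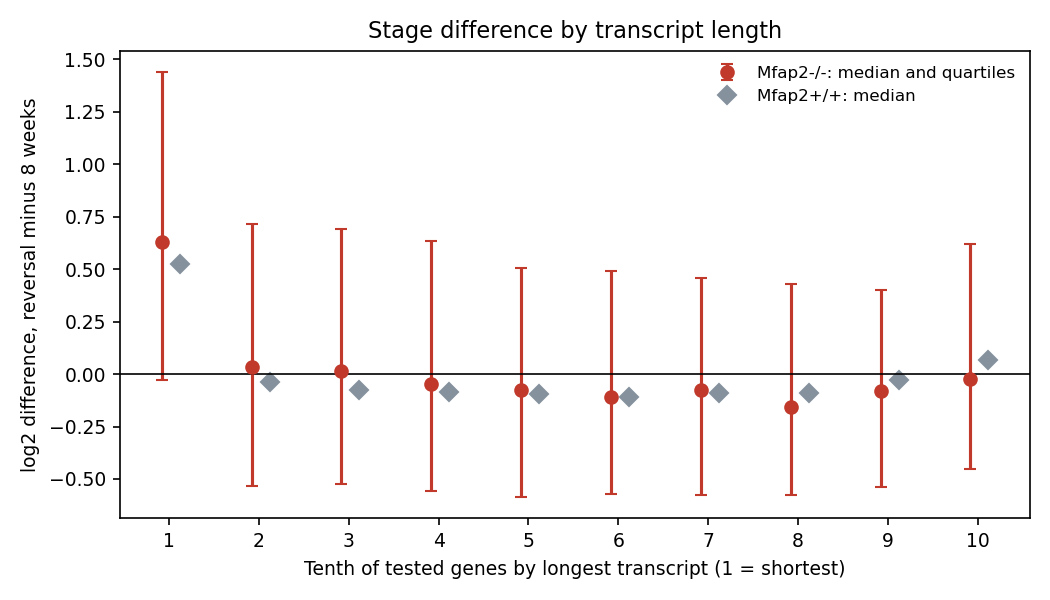
Stage difference by transcript length. The x axis gives 10 equal groups of the tested genes from the shortest to the longest transcript, and the y axis the log2 difference, reversal minus 8 weeks; red points are knockout medians with bars from the lower to the upper quartile, grey diamonds are wild-type medians. The shortest group stands at 0.63 in the knockout and 0.53 in the wild type, and the other groups lie near 0.

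A gene was called lower or higher when its mean over the 8 knockout livers was at least 1 scaled FPKM, the mean log2(scaled FPKM + 1) of the stages differed by at least 1 (2-fold) and the 4 livers of each stage did not overlap. Of 11278 genes tested in this way, 1009 (8.95%) were called lower and 1753 (15.5%) higher in knockout reversal livers, with 143 (1.27%) lower and 542 (4.81%) higher at 4-fold or more. The median of all tested genes was -0.0076. In wild-type livers 932 of 11127 genes (8.38%) were called lower and 1522 (13.7%) higher. Of the genes called lower in the knockout 700 were also called lower in the wild type, and of those called higher 1310 were, while 4 and 3 had the opposite sign there. Both genotypes share the tables, so any offset between tables would enter that overlap too, and its part was not tested. Scaling each library to its total alone put the median of all genes at -0.876, with 4790 genes called lower and 570 higher, and quantile normalization gave 1321 and 1447. List medians are therefore given relative to the median of all genes from here on, unless stated otherwise, and 923 of the lower and 1349 of the higher calls held after quantile normalization. Every count of list members called below is to be read beside the 8.95% lower and 15.5% higher of all tested genes. List counts after quantile normalization stand beside its 1321 lower and 1447 higher calls among all tested genes.

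**Figure D3:**
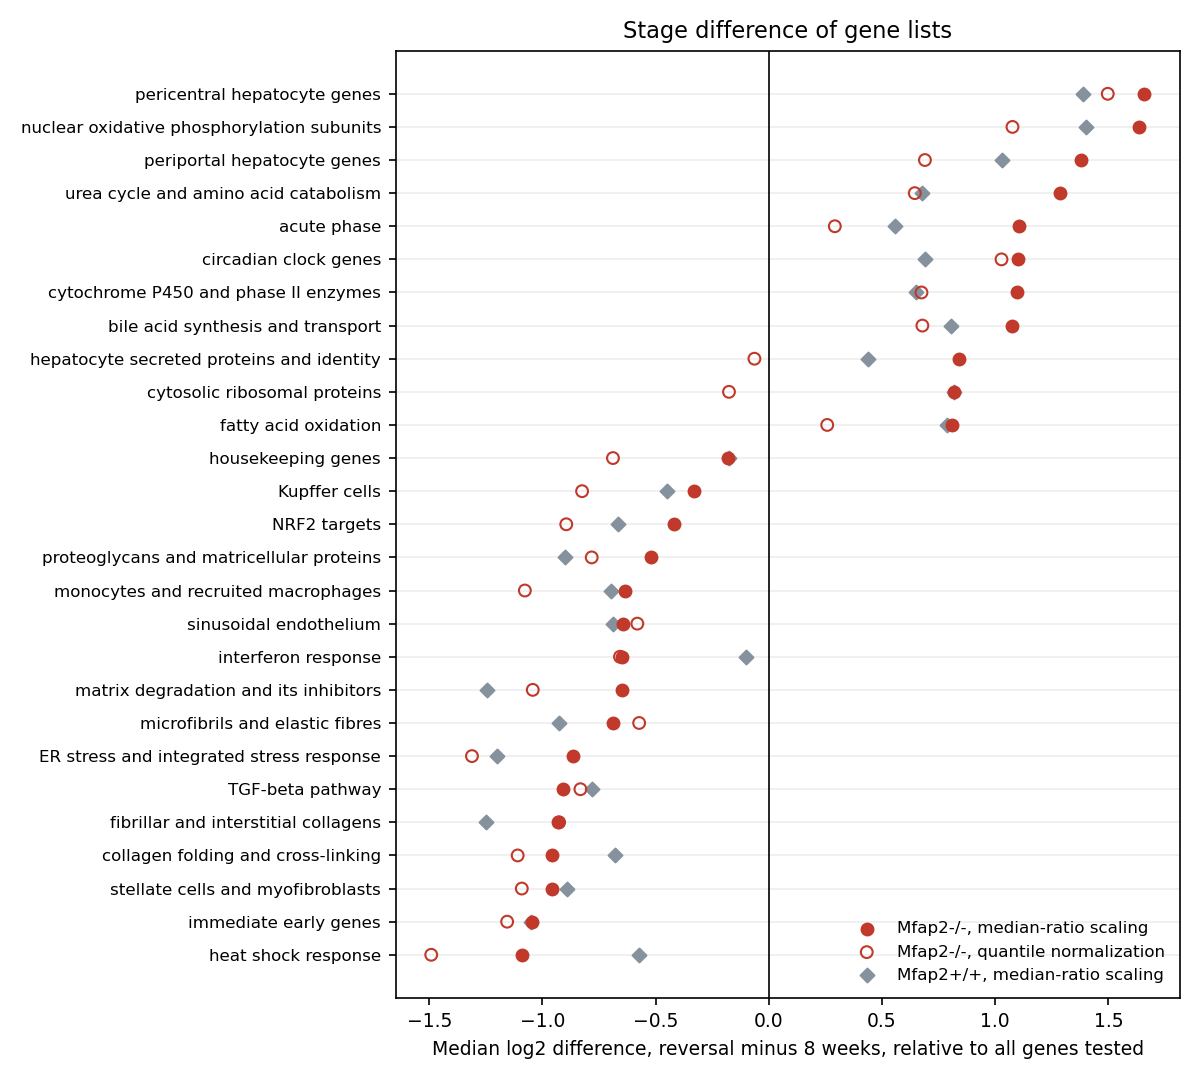
Median log2 difference, reversal minus 8 weeks, of 27 gene lists minus the median of all tested genes (x axis). Filled red circles are knockout livers, open red circles the same after quantile normalization, grey diamonds wild-type livers, and each median is over the tested members of the list named on the y axis. Hepatocyte and mitochondrial lists lie right of 0 and matrix, stellate and stress lists left of it, except that ribosomal and hepatocyte secreted protein genes lie left of 0 after quantile normalization.

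Interstitial collagen genes were called lower in 6 of 13 cases in knockout reversal livers. Col1a1 (chromosome 11, 94936224 to 94953042 of mm10, plus strand), which encodes the main chain of type I collagen, stood at 6.94, 6.08, 22.004 and 11.6 scaled FPKM in knockout reversal livers, against 49.5, 31.4, 55.2 and 28.7 in knockout 8-week livers. Every reversal liver lay below every 8-week liver, and mouse 3 was the highest of its stage in both groups. The log2 difference was -1.85 ± 0.45, and -2.14 in wild-type livers. Col1a2, the partner chain, differed by -1.37 ± 0.39 and was called lower. Col3a1, the type III chain that is laid down early in scars, stood at 28.3, 26.2, 50.4 and 42.2 against 68.96, 60.2, 84.99 and 63.9, without overlap but with a log2 difference of -0.94 ± 0.24 that stayed short of the 2-fold needed. Of 13 interstitial collagen genes 6 were called lower and 0 higher, where 8.95% and 15.5% of all tested genes were, and the list's median lay -0.93 from that of all genes (-1.25 in wild-type livers). The other members called were Col5a1, Col5a2, Col6a1 and Col6a2, which encode regulatory and microfibrillar collagens, at -1.501, -1.03, -1.22 and -1.39. After quantile normalization 7 members were called lower and 3 higher.

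Some genes for proteins that fold, cross-link and decorate collagen were called lower, and none of the tested members was called higher. In the list of folding and cross-linking, 8 of 18 members were called lower and 0 higher (median -0.96 from all genes, and -0.68 in wild-type livers). The collagen chaperone Serpinh1 stood at 16.4, 20.3, 33.7 and 23.6 in knockout reversal livers, against 79.6, 73.8, 90.9 and 62.05 in knockout 8-week livers. P4ha2, a prolyl hydroxylase subunit, stood at 2.68, 3.03, 4.22 and 3.23 against 23.4, 14.6, 9.15 and 13.6, and the cross-linking oxidase Loxl2 at 1.71, 1.59, 4.26 and 1.94 against 8.24, 7.72, 13.2 and 5.85. In all of these the stages were apart. Lox itself, the founding lysyl oxidase, overlapped: 1.01, 0.494, 2.67 and 2.74 in reversal and 6.04, 2.42, 12.3 and 5.01 in 8-week livers, a log2 difference of -1.39 ± 0.52. Among proteoglycans and matricellular proteins 6 of 19 were called lower and 0 higher (median -0.52 from all genes). Sparc, which binds collagen, differed by -1.64 ± 0.26, Sparcl1 by -2.82 ± 0.30, the TGF-beta activator Thbs1 by -2.18 ± 0.33 and the collagen-binding proteoglycan lumican (Lum) by -1.60 ± 0.39.

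Microfibril and elastic fibre genes are the family in which Mfap2 works. Of 15 tested, 2 were called lower, Fbn1 and Emilin2, and 1 higher, Efemp1, a fibulin, at 1.61. Of all tested genes 8.95% were called lower and 15.5% higher, so these few calls do not set the list apart. After quantile normalization 1 member was called lower and 1 higher. The median lay -0.69 from that of all genes in knockout livers and -0.93 in wild-type livers, where 5 were called lower and 1 higher. Fbn1, the partner of MAGP1 in microfibrils, stood at 0.676, 0.924, 1.42 and 1.17 scaled FPKM in knockout reversal livers, against 3.62, 2.41, 5.12 and 2.23 in knockout 8-week livers. Elastin (Eln) stood at 0.914, 3.52, 4.35 and 5.56 against 9.68, 4.95, 13.6 and 6.65, and reversal mouse 4 lay above 8-week mouse 2. Fbn1 was no longer called after quantile normalization.

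**Figure D4:**
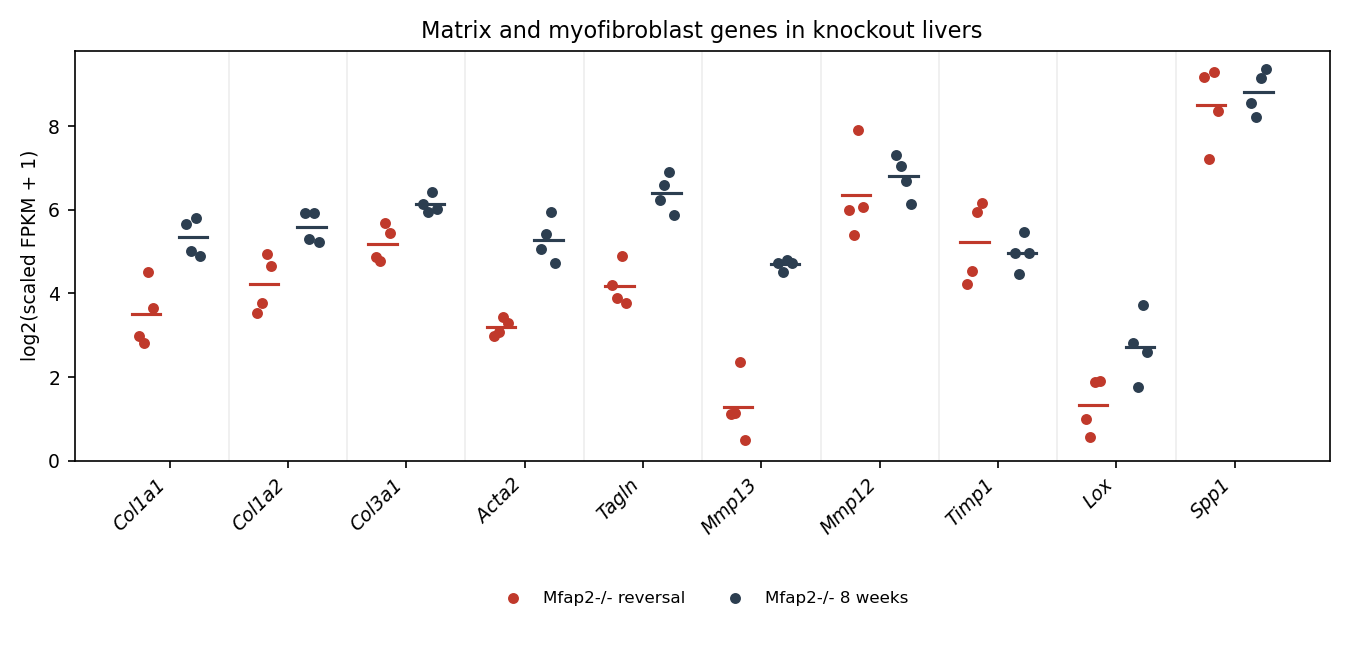
Matrix, protease and myofibroblast genes in the 8 knockout livers, as log2(scaled FPKM + 1) on the y axis. Each point is 1 liver, bars are means of 4, red reversal and dark blue 8 weeks. The stages are apart for Col1a1, Col1a2, Col3a1, Acta2, Tagln and Mmp13 and overlap for Mmp12, Timp1, Lox and Spp1.

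Of 27 genes of matrix degradation 9 were called lower and 0 higher, proteases and inhibitors among them. Mmp13, the interstitial collagenase (chromosome 9, 7272514 to 7283331, plus strand), stood at 1.17, 1.22, 4.12 and 0.409 in knockout reversal livers, against 25.5, 21.97, 26.98 and 25.7 in knockout 8-week livers, a log2 difference of -3.42 ± 0.39. The 8-week livers lay close together, and every reversal liver lay under all of them. The plasminogen activators Plat and Plau differed by -2.38 and -1.67. The protease Adamts1, the matrilysin Mmp7 and the inhibitor Timp3 differed by -2.72, -3.33 and -1.64. The list had a median -0.65 from that of all genes (-1.25 in wild-type livers, where 13 of 26 were called lower). The elastase of macrophages, Mmp12, and the broad metalloproteinase inhibitor Timp1 were not called. Mmp12 stood at 63.3, 41.3, 241 and 65.97 in reversal and 159, 132, 102 and 69.9 in 8-week livers. Timp1 stood at 17.8, 22.3, 60.5 and 70.3 in reversal and 30.2, 20.9, 43.6 and 30.2 in 8-week livers. For Mmp12 the high reversal value is mouse 3, and for Timp1 the high ones are mice 3 and 4.

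Of 17 markers of stellate cells and myofibroblasts 8 were called lower and 0 higher. Acta2, alpha smooth muscle actin (chromosome 19, 34241090 to 34255590, minus strand), stood at 6.86, 7.50, 9.84 and 8.75 scaled FPKM in knockout reversal livers, against 32.5, 41.9, 60.6 and 25.5 in knockout 8-week livers, a log2 difference of -2.09 ± 0.28. The contractile proteins Tagln and Tpm1 differed by -2.21 ± 0.34 and -1.70 ± 0.10, and the pericyte gene Rgs5 by -1.60 ± 0.26. The platelet-derived growth factor receptors Pdgfra and Pdgfrb were called at -1.06 and -1.48, and so was Lrat, the acyltransferase that esterifies retinol in quiescent stellate cells, at -1.54. The list had a median -0.96 from all genes (-0.89 in wild-type livers). Their summed level was 444 to 673 scaled FPKM in reversal and 762 to 920 in 8-week knockout livers. In bulk tissue, fewer cells of a type and less RNA per cell cannot be told apart, and this holds for every cell type below.

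The TGF-beta pathway drives collagen synthesis in myofibroblasts. Its ligands Tgfb1, Tgfb2 and Tgfb3 were all called lower, at -1.21, -1.24 and -1.68 ± 0.36. Tgfb1 stood at 12.98, 14.1, 18.2 and 10.8 in knockout reversal livers, against 40.2, 36.5, 36.6 and 22.97 in knockout 8-week livers. The receptor Tgfbr2 was called lower at -1.31, while Tgfbr1 was at 0.16 and not called. The activin subunits Inhba and Inhbb and the activin antagonist follistatin (Fst) were called lower, at -1.39 ± 0.33, -1.39 ± 0.20 and -2.03 ± 0.31, whereas the hepatocyte activin subunit Inhbe was called higher at 1.35. Of 20 members 10 were called lower and 2 higher, with a median -0.91 from all genes and -0.78 in wild-type livers. For Inhba the wild-type difference was -0.33, and the difference between genotypes had a limma unadjusted p of 0.0304 and did not pass after adjustment (adjusted p = 1.00).

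Markers of recruited macrophages were called in both directions. The inflammatory monocyte marker Ly6c2 stood at 9.40, 3.31, 8.74 and 4.91 scaled FPKM in knockout reversal livers, against 26.3, 23.7, 67.97 and 47.8 in knockout 8-week livers. The Fc receptors Fcgr1 and Fcgr4 and the integrin Itgam differed by -1.64 ± 0.18, -1.83 ± 0.15 and -1.72 ± 0.34. Of 24 markers of monocytes and recruited macrophages 7 were called lower and 3 higher (S100a4, Msrb1 and Ccl9), where 8.95% and 15.5% of all tested genes were, so the share called higher was below that of all genes. The list had a median -0.64 from all genes and -0.70 in wild-type livers. Trem2 and Gpnmb, which mark the lipid-associated macrophages of scars, were not called: Trem2 stood at 25.3, 29.1, 124 and 28.8 in reversal and 96.3, 90.98, 63.2 and 43.3 in 8-week livers. Gpnmb stood at 30.9, 25.4, 151 and 38.7 in reversal and 131, 80.6, 107 and 37.5 in 8-week livers. In both the highest reversal liver was mouse 3. The summed level of the list was 2258 to 4769 in reversal and 2249 to 3496 in 8-week livers, an overlap.

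Kupffer cells are the resident macrophages of the liver. Of 15 markers 1 was called lower, Adgre1 (-1.81 ± 0.25), and 1 higher, Timd4 (1.47), and the median was -0.33 from all genes. Both counts are below the shares of all tested genes, 8.95% lower and 15.5% higher. After quantile normalization 5 were called lower and 1 higher. Clec4f, the marker most specific to these cells, stood at 171, 220.2, 71.6 and 204 in knockout reversal and 101, 112, 62.99 and 108 in knockout 8-week livers and overlapped. Sinusoidal endothelial genes were called lower in 6 of 22 cases and higher in 1, beside 8.95% and 15.5% of all tested genes. Counting any difference in mean, 18 of the 22 were lower and 4 higher. The log2 differences ran from -2.32, for Lyve1, to 2.47, so the largest in size was upward. Lyve1, a hyaluronan receptor, stood at 0.676, 1.83, 1.97 and 1.68 against 13.7, 9.68, 14.2 and 8.74, and Oit3, Tek and Dnase1l3 differed by -1.77 ± 0.35, -1.53 ± 0.16 and -1.39 ± 0.31. The scavenger receptor Stab2 stood at 7.95, 11.3, 8.85 and 6.91 against 8.44, 8.82, 8.15 and 5.27, a log2 difference of 0.17 ± 0.20. The list median was -0.64 from all genes, and -1.04 when reversal mice 2 and 3 were left out together. Of 9 bile duct genes 3 were called lower and 0 higher, against the same shares of all genes. They were Sox9 and Epcam, at -2.33 and -2.01, and Bicc1. The neutrophil alarmin S100a8 was called higher at 2.86, and reversal mouse 3 was the highest at 514 scaled FPKM. It was the only call among 15 neutrophil genes, a share below the 15.5% of all tested genes.

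Interferon response genes were called lower more often than higher in knockout reversal livers. Of 35 members 15 were called lower and 0 higher in knockout livers (8.95% and 15.5% of all genes), against 2 lower and 5 higher in wild-type livers. The medians lay -0.65 and -0.10 from those of all genes. Rsad2 (viperin, an antiviral radical SAM enzyme) stood at 1.69, 1.74, 2.54 and 1.57 scaled FPKM in knockout reversal livers, against 12.8, 8.64, 26.2 and 29.1 in knockout 8-week livers. The oligoadenylate synthase Oas3, which starts RNA decay, stood at 0.795, 1.89, 2.44 and 1.23 against 8.47, 5.55, 12.7 and 12.5, and the RNA-binding Ifit3b at 3.76, 4.15, 3.35 and 5.52 against 12.6, 7.004, 23.2 and 31.6. In each the 8-week mice 3 and 4 were the highest, and the stages did not overlap. The transcription factor Irf7 and the dynamin-like GTPase Mx1 were called lower at -1.20 and -1.44. Isg15, a ubiquitin-like modifier, stood at 46.3, 82.1, 75.3 and 48.01 against 98.7, 70.02, 151 and 191 and overlapped. Without 8-week mice 3 and 4 together, 6 members were called lower and 2 higher and the median was -0.37. The knockout minus wild-type stage difference was negative at a limma unadjusted p under 0.05 for 11 members and positive for 0. Among all 11216 genes, 334 had such a p in either direction. No member passed when adjusted over all 11216 genes (smallest adjusted p = 1.00 to 3 digits).

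The promoters of interferon genes carry the interferon-stimulated response element, read here as GAAA and GAAA with any 2 bases between them, on either strand, within 300-base RefSeq windows around the gene start (GRCm38.p6). It was found in 16 of 25 list members that have a window (64%) and in 6 of 11 of those called lower (54.5%), against 3.99% of 27025 windows of all genes. A gene with several matches, overlapping or not, was counted once. The windows of 2 members that were called lower are shown in gene orientation, with the match in capitals; a match is a string of letters and not a bound site.
Rsad2 (chr12:26456403-26456702, minus strand): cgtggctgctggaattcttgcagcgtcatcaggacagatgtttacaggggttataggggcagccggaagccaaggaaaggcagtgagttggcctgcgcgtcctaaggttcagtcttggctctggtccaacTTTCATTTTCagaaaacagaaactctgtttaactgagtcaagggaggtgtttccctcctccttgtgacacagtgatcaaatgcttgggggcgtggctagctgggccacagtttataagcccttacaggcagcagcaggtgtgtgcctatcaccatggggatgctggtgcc
Ifit3b (chr19:34607707-34608006, plus strand): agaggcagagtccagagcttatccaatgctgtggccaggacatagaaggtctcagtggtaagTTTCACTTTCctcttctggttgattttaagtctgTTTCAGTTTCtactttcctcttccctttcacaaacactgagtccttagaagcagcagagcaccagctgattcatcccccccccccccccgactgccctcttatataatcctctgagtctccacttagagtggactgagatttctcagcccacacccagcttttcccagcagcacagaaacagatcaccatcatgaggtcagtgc

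Metabolic genes of hepatocytes were called higher more often than lower in knockout reversal livers, where 15.5% of all tested genes were called higher and 8.95% lower. Cyp2e1 (chromosome 7, 140763739 to 140774987, plus strand), the enzyme that activates CCl4, stood at 4626, 3068, 2726 and 5747 scaled FPKM in knockout reversal livers, against 108, 131, 130.0 and 256 in knockout 8-week livers. Every reversal liver was above every 8-week liver, and the log2 difference was 4.70 ± 0.37 (3.98 in wild-type livers). Glutamine synthetase (Glul), confined in healthy liver to the cells next to the central vein, stood at 446, 538, 448 and 610.3 against 59.8, 56.9, 56.2 and 27.1. Of 24 pericentral genes 17 were called higher and 0 lower, with a median 1.66 above that of all genes and 1.39 in wild-type livers. After quantile normalization 14 were called higher and the median was 1.498. The other members with large differences were Cyp2c37, Cyp2a5 and the calcium-binding regucalcin (Rgn), at 5.45 ± 0.52, 3.87 ± 0.52 and 3.84 ± 0.49; Cyp2a5 and Cyp2c37 have near-identical neighbours in their families, and their values are uncertain to that extent.

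Periportal genes work where portal blood enters the lobule. Of 22 members 11 were called higher and 1 lower (Cdh1), with a median 1.38 above all genes. After quantile normalization 7 were called higher and 4 lower and the median was 0.69. The histidine-degrading enzyme Hal stood at 415, 649.6, 254 and 488 in knockout reversal livers, against 30.7, 53.6, 23.1 and 23.4 in knockout 8-week livers, and the growth factor Igf1 at 1284, 2140.4, 1440.0 and 1298 against 151, 257, 156 and 185. Cps1, which starts the urea cycle, was not called: 469.5, 314, 183 and 393 in reversal and 342, 615, 298 and 402 in 8-week livers. Across the urea cycle and amino acid catabolism 22 of 41 genes were called higher and 0 lower, and 13 and 3 after quantile normalization. Bhmt (chromosome 13, 93616675 to 93637961, minus strand), which remethylates homocysteine with betaine, stood at 2309, 2242, 2237 and 2195 against 104, 63.6, 61.5 and 61.1, a log2 difference of 4.97 ± 0.19. The reversal livers lay close together, and among the 8-week livers mouse 1 was the highest.

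Cytochrome P450 and phase II enzymes, which oxidize and conjugate drugs, were called higher in 34 of 75 cases and lower in 4, and in 29 and 2 of 65 when sex-biased genes were left out. The lower ones included Gsta1, a glutathione transferase, at 18.5, 43.7, 89.4 and 5.64 against 469, 688, 313 and 572, which cannot be separated with confidence from its close copy Gsta2. Bile acid genes were called higher in 13 of 30 cases and lower in 2. Cyp7a1 (chromosome 4, 6265612 to 6275633, minus strand), which sets the rate of bile acid synthesis, stood at 69.4, 31.9, 26.5 and 32.1 in knockout reversal livers, against 0, 0.877, 0.741 and 0.454 in knockout 8-week livers. Cyp8b1, the 12-alpha-hydroxylase that sets the share of cholic acid, stood at 161, 109.5, 88.3 and 42.4 against 0.453, 3.35, 5.28 and 9.93. The reductase Akr1d1 and the canalicular bile salt pump Abcb11 differed by 3.43 ± 0.42 and 4.31 ± 0.32. The members called lower were Abcc4, which exports bile acids back to blood, at -1.43, and Cyp39a1 at -1.98. The sinusoidal uptake transporter Slc10a1 overlapped, with reversal mouse 3 at 74.2 scaled FPKM and the other reversal livers between 231 and 559. Fatty acid oxidation genes were called higher in 16 of 40 cases and lower in 3, with Fabp1, the liver fatty acid carrier, at 3.996 ± 0.40. After quantile normalization the counts were 4 and 6, and the median was 0.26 above all genes. Of all tested genes 15.5% were called higher and 8.95% lower, and 1447 and 1321 genes after quantile normalization. Before it, the shares of the P450, bile acid and fatty acid lists called lower were below 8.95%.

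Secreted hepatocyte proteins depended on the scaling. Their median was 0.84 above all genes with 9 of 26 called higher and 0 lower, and -0.0635 after quantile normalization with 4 higher and 2 lower. Apoa2 and Apoc3, small apolipoproteins, differed by 3.01 ± 0.27 and 2.92 ± 0.27, antithrombin (Serpinc1) by 3.43 ± 0.34, and albumin by 0.89 ± 0.44 with overlap. The summed level of the list was 205460 to 338935 scaled FPKM in reversal and 71262 to 150288 in 8-week knockout livers. With this scaling the sum over all tested genes was also higher in reversal, at 1132490 to 1385893 against 518829 to 773997. The summed level therefore does not set this list apart, and the same limit holds for every summed level given here.

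**Figure D5:**
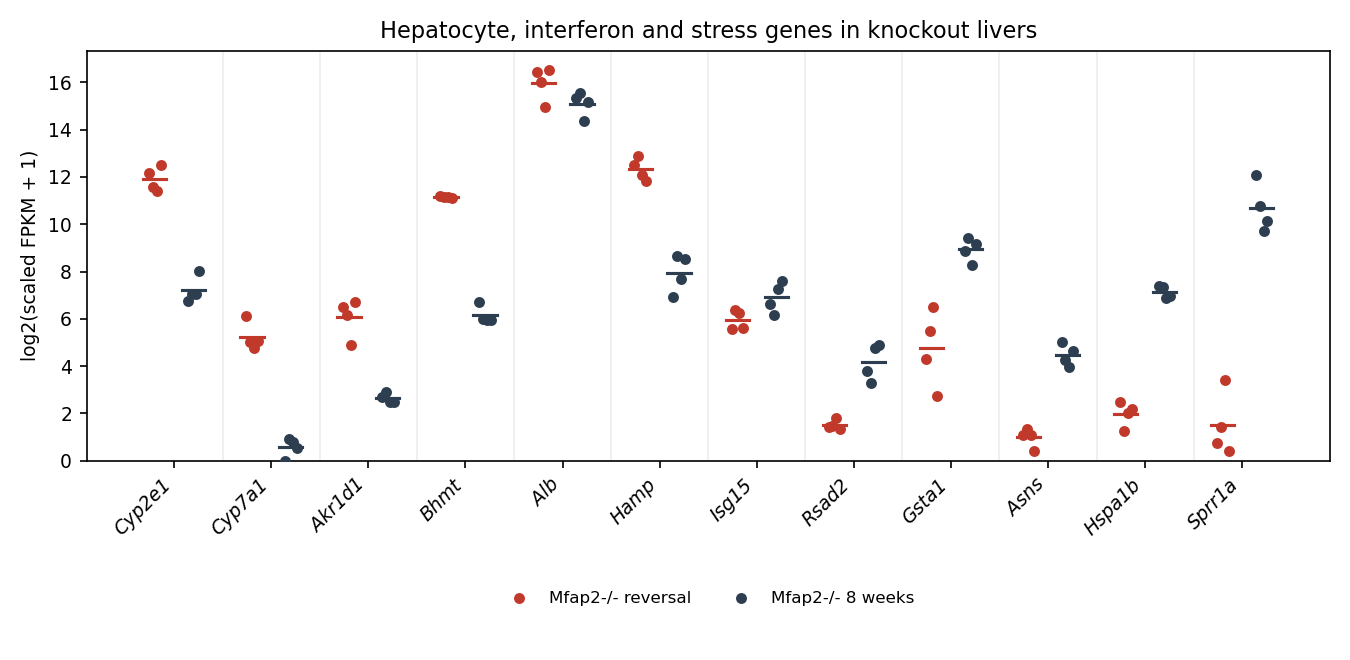
Hepatocyte, interferon and stress genes in the 8 knockout livers, as log2(scaled FPKM + 1) on the y axis. Each point is 1 liver, bars are means of 4, red reversal and dark blue 8 weeks. Cyp2e1, Cyp7a1, Akr1d1, Bhmt and Hamp are higher and Rsad2, Gsta1, Asns, Hspa1b and Sprr1a lower in every reversal liver than in any 8-week liver, while Alb and Isg15 overlap.

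Acute phase genes encode plasma proteins of inflammation. Of 26 members 12 were called higher and 0 lower, beside 15.5% and 8.95% of all tested genes, with a median 1.11 above all genes. After quantile normalization 8 were higher and 2 lower and the median was 0.29. Serum amyloid Saa1 stood at 6391, 2113, 7289 and 1856 scaled FPKM in knockout reversal livers, against 477, 903, 385 and 527 in knockout 8-week livers, and the orosomucoid Orm2 at 3929.8, 6852, 5706 and 1593 against 251, 385, 192 and 151. Hepcidin (Hamp), the hormone that blocks iron export, stood at 5789, 7595, 4304 and 3633 against 119, 399, 203 and 364, a log2 difference of 4.39 ± 0.47. Its near-identical copy Hamp2, which is known to be higher in female mice, stood at 778, 5075, 264 and 2182 against 0.635, 3.80, 1.24 and 1.66, and reads of the pair may have been split differently in the tables. Lcn2, an iron-siderophore binder, overlapped, at 3062, 3295, 5486 and 1564 in reversal and 1752, 1344, 899.8 and 711 in 8-week livers. Ferritin heavy chain (Fth1) and Bmp6, the ligand that induces hepcidin, were called lower, at -1.28 and -1.84.

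Stress response genes were called lower more often than higher, where 8.95% of all tested genes were called lower and 15.5% higher. Sprr1a, a cross-linked envelope protein induced by injury, had the largest difference of all named genes downward, at 0.676, 1.68, 9.57 and 0.327 in knockout reversal livers, against 4351, 1754, 845 and 1137 in knockout 8-week livers (-9.19 ± 0.85). Hspb1, a small chaperone, stood at 17.3, 31.2, 12.3 and 19.5 in reversal livers, against 1709, 1060.1, 264 and 363 in 8-week livers. The inducible HSP70 gene Hspa1b stood at 4.61, 1.42, 3.05 and 3.54 in reversal livers, against 165, 162, 118 and 124 in 8-week livers. Of 18 heat shock genes, a list added after these values were seen, 8 were called lower and 0 higher (13 and 0 after quantile normalization). Hspa1a and Hspa1b are near-identical, so their split is uncertain. The growth-arrest gene Cdkn1a (p21) differed by -2.51 ± 0.40. Among immediate early genes 9 of 19 were called lower and 1 higher, with Myc, Jun and Ier3 at -2.30 ± 0.31, -2.20 ± 0.43 and -2.08 ± 0.29. NRF2 targets, the antioxidant response, were called lower in 9 of 30 cases and higher in 3, the latter a share below the 15.5% of all tested genes. Srxn1, which repairs peroxiredoxins, stood at 28.2, 28.4, 40.7 and 23.03 against 160.4, 131, 128 and 137, whereas the glutathione synthesis subunit Gclm was called higher at 2.20.

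The integrated stress response controls genes of amino acid synthesis, and both lists had more members called lower than higher. Of 25 genes of endoplasmic reticulum and integrated stress 9 were called lower and 3 higher (16 and 1 after quantile normalization). Of all tested genes 8.95% were called lower and 15.5% higher, so the list's share called higher was below that of all genes. Asparagine synthetase (Asns; chromosome 6, 7675169 to 7693254, minus strand) stood at 1.11, 1.57, 1.15 and 0.348 in knockout reversal livers, against 31.5, 18.1, 14.5 and 24.3 in knockout 8-week livers. Phgdh, the first enzyme of serine synthesis, stood at 0.636, 0.494, 1.57 and 0.491 against 59.4, 28.6, 20.1 and 29.3, and Psat1, the next enzyme, at 1.51, 1.63, 2.37 and 1.59 against 43.2, 28.8, 32.1 and 38.8. Every reversal liver was at or under 2.37 and every 8-week liver at or above 14.5 scaled FPKM for these 3 genes. Of 10 tested members of a list named for serine, glycine and asparagine synthesis 8 were called lower and 2 higher, Shmt1 and Shmt2. This list was added after its values were seen. It also holds the cystine transporter Slc7a11 and the proline synthesis enzyme Aldh18a1, both called lower. Asns is a member of both lists. The stress regulators Atf3 and Trib3 and the chaperone Hyou1 differed by -2.25 ± 0.47, -2.22 ± 0.30 and -1.91 ± 0.19. In wild-type livers 12 of the 25 endoplasmic reticulum and integrated stress genes were called lower and 1 higher.

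The binding element of ATF4, the factor of this response, was read as TGATGNAA on either strand. It was found in 5 of 23 list members with a promoter window (21.7%) and in 4 of 8 of those called lower (50%), against 4.51% of all windows. The heat shock element, read as GAA, TTC and GAA with any 2 bases between neighbours, was found in 4 of 14 heat shock genes (28.6%) and 0 of 6 of those called lower, against 0.662% of all windows. The antioxidant response element, read as TGAC and GCA with any 3 bases between them, was found in 2 of 27 NRF2 targets (7.41%), against 3.45%. The windows of Asns and Atf3, which had a match and were called lower, are shown with it in capitals.
Asns (chr6:7693160-7693459, minus strand): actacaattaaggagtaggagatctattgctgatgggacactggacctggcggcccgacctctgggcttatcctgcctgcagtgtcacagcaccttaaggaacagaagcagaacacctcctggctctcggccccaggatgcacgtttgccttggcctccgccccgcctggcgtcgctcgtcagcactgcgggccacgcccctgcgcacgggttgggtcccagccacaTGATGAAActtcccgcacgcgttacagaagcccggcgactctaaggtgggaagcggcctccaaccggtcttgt
Atf3 (chr1:191183284-191183583, minus strand): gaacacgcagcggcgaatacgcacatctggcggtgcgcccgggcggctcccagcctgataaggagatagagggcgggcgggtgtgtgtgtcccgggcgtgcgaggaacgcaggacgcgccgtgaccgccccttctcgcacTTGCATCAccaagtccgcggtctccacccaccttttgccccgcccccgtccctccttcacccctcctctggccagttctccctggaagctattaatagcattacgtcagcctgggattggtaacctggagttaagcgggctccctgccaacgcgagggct

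Circadian clock genes were called higher more often than lower in knockout reversal livers. The output factor Dbp stood at 179, 218, 143 and 276 in knockout reversal livers, against 6.02, 22.99, 9.08 and 13.3 in knockout 8-week livers, and the repressors Per2 and Per3 differed by 1.65 ± 0.43 and 2.24 ± 0.38. Nfil3, which represses the targets of Dbp, was called lower at -1.87, and Clock, at -0.79, was not called. Of 17 members 9 were called higher and 1 lower, beside 15.5% and 8.95% of all tested genes, so the share called lower was below that of all genes. The labels give no time of day for the sampling.

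Nuclear genes of oxidative phosphorylation and of the cytosolic ribosome had short transcripts, the length class with the largest median difference between stages. Of 33 respiratory subunits 23 were called higher and 0 lower (16 and 1 after quantile normalization), with a median 1.64 above all genes, 1.44 after adjustment for transcript length and 1.08 after quantile normalization. Ndufa5, a complex I subunit, stood at 537, 965, 848 and 575 against 39.8, 41.6, 20.9 and 33.5. Of 42 ribosomal protein genes 20 were called higher and 1 lower, with a median 0.82 above all genes that was 0.51 after adjustment for transcript length and -0.18 after quantile normalization. The counts were then 8 higher and 2 lower after the length adjustment, and 6 higher and 9 lower after quantile normalization. Among 28 housekeeping genes 6 were called lower and 6 higher (10 and 3 after quantile normalization), with elongation factor Eef2 at -1.56 ± 0.21 and the glycolytic Pgk1 at -1.28 ± 0.26. Of all tested genes 8.95% were called lower and 15.5% higher. The median transcript lengths were 1141 bases for respiratory subunits and 1107 for ribosomal proteins, and 6119 for interstitial collagens.

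Some red cell transcripts were called lower in knockout reversal livers. Hbb-bt, a beta globin, stood at 86.2, 81.3, 311 and 135 scaled FPKM in knockout reversal livers, against 2101, 1273, 1977 and 1355 in knockout 8-week livers. Its wild-type values were 253, 343, 730.2 and 201 in reversal and 502, 753, 376 and 1762 in 8-week livers. Of 10 genes of blood and erythroid cells 4 were called lower and 0 higher (6 and 0 after quantile normalization). Their median log2 difference, here not relative to all genes, was -1.50 in knockout livers, against 0.14 and no call in wild-type livers. The summed level was 1217 to 4306 in knockout reversal and 6362 to 13334 in knockout 8-week livers. The globin genes are near-identical pairs, and the blood left in a liver piece depends on how it was taken; its part in other results was not tested.

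The stage difference of the knockout was then tested against that of the wild type. An offset between tables that is equal for both genotypes cancels in this interaction, (knockout reversal - knockout 8 weeks) - (wild-type reversal - wild-type 8 weeks). Of 11216 genes, 0 passed an adjusted p of 0.05 in limma over the 16 libraries, 334 had an unadjusted p under 0.05, and the smallest adjusted p was 0.524. Without wild-type 8-week mouse 4 the unadjusted count was 768. A p that misses the threshold does not show that the genotypes had the same stage difference.

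The smallest p belonged to Fbf1, a ciliary transition fibre protein, with an interaction of -1.74 ± 0.32, and the next to Bhmt. For interactions, ± gives the SE from limma over the 16 libraries, whose spread estimate borrows from other genes. Bhmt had an interaction of 3.10 ± 0.61 (limma unadjusted p = 9.34e-05, adjusted p = 0.524): beside the knockout values given above, wild-type livers stood at 2507, 2075, 1942 and 1729 in reversal and 1017, 1308, 181 and 404 in 8-week mice. The reversal livers of the genotypes overlapped, and all 4 wild-type 8-week livers lay above all 4 knockout 8-week livers. Cyp7a1 had an interaction of 3.07 ± 0.70 (limma unadjusted p = 0.000417, adjusted p = 1.00), with 22.8, 21.7, 30.1 and 20.8 in wild-type reversal and 11.97, 22.1, 5.04 and 1.27 in wild-type 8-week livers. Without wild-type 8-week mouse 3 Bhmt passed alone (adjusted p = 0.00412), and without wild-type 8-week mouse 4 Cyp7a1 passed alone (adjusted p = 0.0241). Prg4, a lubricating proteoglycan, had 1.28 ± 0.27, the clock repressor Nr1d1 1.32 ± 0.37 and Hbb-bt -2.56 ± 0.69.

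Among matrix genes Mmp13 had an interaction of -1.45 ± 0.46 (limma unadjusted p = 0.00566, adjusted p = 1.00), with 0.190, 0.586, 0.975 and 0.781 in wild-type reversal and 7.99, 7.72, 3.40 and 3.48 in wild-type 8-week livers. Col1a1 and Acta2 had interactions of 0.29 ± 0.48 and 0.34 ± 0.62, smaller than their standard errors. Bile acid genes had a limma unadjusted p under 0.05 in 6 of 30 cases, all positive, and blood genes in 6 of 10. Among all genes this held for 334 of 11216, and no member of either list passed after adjustment. For Hspa1b the interaction was -2.002 ± 0.84: wild-type 8-week livers stood at 6.74, 19.7, 139 and 69.9, so mice 1 and 2 were low where all 4 knockout livers were high.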

How the data were processed

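RNA sequencing of frozen liver gave 16 libraries, 4 in each group of genotype and stage. Per the submitters' processing notes reads were handled with HISAT and Cufflinks on mm10, with no versions named. The authors deposited FPKM values in one table per stage, normalized separately; counts and depth are unknown, so no interval for counting error is given. The reversal table's sums (881501 to 959698 for the knockout) lie near those of TPM; which unit it holds was not tested.

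Genes were joined by Ensembl identifier: 12922 were listed in the reversal table, 13715 in the 8-week table and 12446 in both, mitochondrial genes left out. Each library was scaled to a total of 1e+06 over these genes and then by a median-ratio factor over the 16 libraries. Differences are on the log2(scaled FPKM + 1) scale, which understates those of low genes. Calls between stages needed a mean of at least 1, a 2-fold difference and no overlap, and carry no p-value. The interaction was fitted with limma 3.58.1 (trend and robust, statmod 1.5.0, R 4.3.3) over 16 libraries, with Benjamini-Hochberg adjustment over 11216 genes. Both procedures were tested on simulated data, with changes planted in genes that were not low. The interaction test recovered 32 of 100 genes changed by 1 in log2 and 82 of 100 changed by 2, with 9 false. It therefore missed most changes of 2-fold. The calls between stages recovered 194 of 200 genes changed by 2 in log2, with 17 false. The simulated stages held no offset between tables by gene, length or abundance. The 17 therefore do not measure how many of the real calls such an offset would give.

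Members and gene lists were chosen with earlier results of these data known; the sex-biased, Y-linked, heat shock, serine synthesis and iron lists were added after seeing these values. Named genes were a fixed panel (such as Alb, Col1a1, Mmp13, Cyp2e1, Bhmt and Isg15), up to 12 in each direction with the largest difference, called also after quantile normalization and with a mean of at least 5 in the higher group, up to 4 per list with the largest difference in the direction of its median, and up to 10 with the smallest interaction p. Other genes, such as Lrat, S100a8, Abcc4 and the Y-linked genes, were named after their values were seen. Promoter windows, from RefSeq GRCm38.p6, were matched by symbol. The labels do not say that the reversal libraries came from separate mice, so p-values measure the spread between libraries, which may be technical in part. Some genes are not reported here.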

Additional observations from a re-analysis of the deposited data

Results flagged for a closer look

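Each named gene was examined for a knockout liver that stood apart from the other 3 of its group, by the gap to the nearest liver as a share of the group's whole range (Dixon's ratio, 95% level). This marked 22 of 295 groups over 149 genes, leaving out 3 groups that were at 0 in every liver. Chance marks about 1 in 20 groups, and genes of the same livers are not independent. Knockout reversal mouse 1 was the lowest of its group for Col6a2 (0.891) and Trib3 (0.891), with the ratio in brackets. Knockout reversal mouse 1 was the highest of its group for Ugt2b38 (0.893). Knockout reversal mouse 3 was the lowest of its group for Tonsl (0.904), Cyp2c40 (0.848), Car3 (0.851), Fst (0.929), Apoa1 (0.920) and Rgn (0.956). Knockout reversal mouse 3 was the highest of its group for Phgdh (0.8292). Knockout reversal mouse 4 was the lowest of its group for Cd5l (0.833). Knockout reversal mouse 4 was the highest of its group for Vnn1 (0.835). Knockout 8-week mouse 1 was the lowest of its group for Mup7 (0.925). Knockout 8-week mouse 1 was the highest of its group for Bhmt (0.924) and Cyp2c37 (0.851). Knockout 8-week mouse 2 was the highest of its group for Fabp1 (0.904). Knockout 8-week mouse 3 was the lowest of its group for Nr1d1 (0.856), Rps28 (0.868) and Rps27 (0.868). Knockout 8-week mouse 4 was the lowest of its group for Glul (0.922), Stab2 (0.841) and Adgre1 (0.973).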

How the results depend on the processing

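The counts between stages depended on the scaling: total scaling alone gave 4790 genes lower and 570 higher in knockout reversal livers, and requiring 4-fold gave 143 and 542. Leaving out 1 knockout liver gave 970 to 1142 lower and 1681 to 1876 higher. After quantile normalization the medians relative to all genes were -0.78 for proteoglycans, -1.04 for matrix degradation, -0.82 for Kupffer cells, 0.69 for periportal genes, 0.67 for P450 and phase II enzymes, 0.68 for bile acid genes, 0.64 for amino acid catabolism, 0.26 for fatty acid oxidation, 0.29 for the acute phase, -0.89 for NRF2 targets, -1.31 for endoplasmic reticulum and integrated stress, 1.08 for respiratory subunits, -0.69 for housekeeping genes and -1.49 for heat shock genes. They were -0.0635 for secreted hepatocyte proteins and -0.18 for ribosomal proteins, opposite in sign to the values reported. A pseudocount of 0.1 put the TGF-beta pathway at -1.21, and a minimum mean of 5 put immediate early genes at -0.63. Chosen after seeing the data, adjustment for transcript length put ribosomal proteins at 0.51. Leaving out reversal mice 2 and 3 put stellate cells at -1.17, sinusoidal endothelium at -1.04, secreted hepatocyte proteins at 1.24, endoplasmic reticulum and integrated stress at -0.65 and clock genes at 1.37. Leaving out 8-week mice 3 and 4 put bile acid genes at 0.72. The cause was not tested. The replicate numbers did not pair the livers (correlations of same-numbered libraries from -0.640 to 0.381). With the number as a replicate block 0 genes passed the interaction test in limma (327 at an unadjusted p under 0.05), and leaving out 1 library gave 0 to 1. The count at an unadjusted p under 0.05 ran from 240 to 768 when 1 library was left out, and the 768, against 334 with all libraries, came without wild-type 8-week mouse 4. The scaling, pseudocount and filter settings gave 0, with 223 to 385 such genes. Depth is unknown, so no limit on low genes can be given.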
